A study of Mus musculus with 6 samples.

Results

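The genes described are 39 mouse genes of glucose transport and glycolysis (18 genes), the pentose phosphate pathway (6 genes) and the response to hypoxia (15 genes), listed by symbol and matched to the Entrez identifiers of the deposited table. 38 of the 39 were matched, among 27179 identifiers in all. Ddit4l2 had no match and has no value. 36 members passed a filter on low values and were tested together with the other genes, 11468 in all; Rpia and Car9 fell under the filter.

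The samples are lens RNA of B6/FVB mice at postnatal day 1, measured by RNA sequencing. 3 libraries carry the genotype label Gclc KO (KO 1 to 3) and 3 carry Gclc CON (CON 1 to 3), and no treatment is named for either group. Gclc is the gene for the catalytic part of the ligase that joins glutamate and cysteine, the limiting step in making glutathione, and the comparison asks how transcripts differ when it is disrupted in the newborn lens. The labels do not name a Cre driver, the deleted part of Gclc, the alleles of the CON mice, litters or the number of animals in a library, so the p-values measure the spread between these 6 libraries only.

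The lens has no blood vessels of its own, and its fibre cells lose their mitochondria and nuclei as they mature, so lens tissue draws much of its ATP from the conversion of glucose to lactate. The pentose phosphate pathway branches from glycolysis at glucose 6-phosphate and yields NADPH, with which oxidised glutathione is reduced. HIF-1, a transcription factor whose alpha subunit is degraded when oxygen is plentiful, binds the core sequence ACGTG and is known to drive many glycolytic genes along with genes for oxygen sensing, mitophagy and collagen hydroxylation.

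Libraries held between 20361430 (CON 2) and 61219009 (KO 3) reads in genes. Crystallin genes, which encode the refractive proteins of the lens, took 59.5% to 68.4% of reads in CON and 40.5% to 47.5% in KO. The values below are normalised reads, that is, reads divided by the size factor of the library, and the values of a group stand in the order of its libraries 1 to 3. Gclc itself had 178, 283 and 173 normalised reads in the CON libraries and 17.9, 72.1 and 58.1 in the KO libraries (log2 difference of the variance-stabilised values, KO minus CON, -1.01, limma adjusted p = 0.0387). Of 10 lens fibre markers, 9 were lower in KO, beside 4.39% of all tested genes, with a median log2 difference of -1.40. Together the 10 took 28.5% to 31.8% of reads in CON and 18.6% to 22.3% in KO. The crystallins Cryaa, Cryba1 and Crygs are among the 10, so this share overlaps with the crystallin share above. Of 12 macrophage markers, 10 were higher in KO, beside 6.91% of all tested genes. Their summed normalised reads ranged from 1907 to 3528 in CON and from 6964 to 23823 in KO. Of 6 tested red cell markers 1 was lower (Hba-a2), beside 4.39% of all tested genes. The red cell sums were 5823 to 9101 in CON and 3147 to 4728 in KO. The 7 neutrophil markers summed to 9.44 to 45.4 in CON and 91.0 to 324 in KO, the only 1 tested was not called, and Elane, Ly6g and Mpo were at 0 in every library. Retina neuron and glia markers summed to 2301 to 3628 in CON and 4591 to 6304 in KO, and 2 of 7 tested were higher. These 7 did not all go 1 way: all KO libraries lay below all CON libraries for 2 and above them for 4, beside 14.1% and 16.9% of all tested genes. Lens epithelium markers had 2 higher and 2 lower of 6 tested, mesenchyme markers 1 lower of 2, and endothelium markers no call among 8. In whole-lens RNA, fewer cells of a type and less RNA per cell cannot be told apart, and the part of these marker lists in the results below was not tested.

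Promoter sequences of 6 members are shown first, 4 lower in KO whose windows hold ACGTG, and 2 higher in KO whose windows do not. Only ACGTG was searched, so other forms of the HIF site are not marked. Members lower in KO without ACGTG are not shown, so the 6 do not tell how often a call and a match go together. Each is the 250 bases before an annotated start of the gene (RefSeq, build GRCm38.p6), written 5′ to 3′ on the strand of the gene, and capitals mark ACGTG on either strand (CACGT on the strand shown). The 6-base E-box CACGTG, which other factors bind, contains the core on both strands. Hk2 lies at chr6:82774455-82774704 (minus strand), P4ha1 at chr10:59323046-59323295 (plus strand), Bnip3 at chr7:138909507-138909756 (minus strand), Aldoa at chr7:126799255-126799504 (minus strand), Ldhb at chr6:142507958-142508207 (minus strand) and Pfkp at chr13:6648772-6649021 (minus strand).
Hk2: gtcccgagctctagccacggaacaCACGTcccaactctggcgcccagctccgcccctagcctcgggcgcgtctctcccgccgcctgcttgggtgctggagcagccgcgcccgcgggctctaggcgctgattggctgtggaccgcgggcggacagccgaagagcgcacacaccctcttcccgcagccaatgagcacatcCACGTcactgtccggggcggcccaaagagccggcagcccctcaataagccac
P4ha1: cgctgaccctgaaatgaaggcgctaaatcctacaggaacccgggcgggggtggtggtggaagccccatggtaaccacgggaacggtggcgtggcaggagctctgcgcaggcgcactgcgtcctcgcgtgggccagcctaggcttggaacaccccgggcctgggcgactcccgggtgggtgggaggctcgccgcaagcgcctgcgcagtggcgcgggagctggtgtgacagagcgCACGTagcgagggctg
Bnip3: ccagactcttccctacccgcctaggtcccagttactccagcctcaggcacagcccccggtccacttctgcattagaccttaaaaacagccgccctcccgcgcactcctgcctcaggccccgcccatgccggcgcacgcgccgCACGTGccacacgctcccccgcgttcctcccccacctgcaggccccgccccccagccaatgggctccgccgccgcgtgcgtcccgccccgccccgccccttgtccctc
Aldoa: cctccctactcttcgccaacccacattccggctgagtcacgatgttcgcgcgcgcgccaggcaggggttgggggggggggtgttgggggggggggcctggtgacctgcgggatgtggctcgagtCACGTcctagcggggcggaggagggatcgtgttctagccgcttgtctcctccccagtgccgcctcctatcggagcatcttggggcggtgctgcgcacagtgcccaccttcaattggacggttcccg
Ldhb: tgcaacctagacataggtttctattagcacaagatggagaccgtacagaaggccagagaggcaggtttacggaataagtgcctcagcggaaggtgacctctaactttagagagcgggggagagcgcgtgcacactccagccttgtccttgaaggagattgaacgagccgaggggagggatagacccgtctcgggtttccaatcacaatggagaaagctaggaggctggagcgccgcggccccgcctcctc
Pfkp: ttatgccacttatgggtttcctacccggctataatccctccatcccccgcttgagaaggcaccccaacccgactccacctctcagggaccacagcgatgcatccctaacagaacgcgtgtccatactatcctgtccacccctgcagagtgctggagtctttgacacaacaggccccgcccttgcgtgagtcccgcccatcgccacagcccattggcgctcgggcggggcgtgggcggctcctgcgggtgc

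A gene counted as holding the core if the window of any of its annotated starts did. The core was in 2 of 3 windows of Aldoa and Mxi1, 2 of 4 of Pfkm, and 1 of 2 of Pkm, Ldha and Vegfa. The matching window held 140 bases of annotated exons in Pkm, 13 in Bnip3 and 0 in Hk2 and P4ha1. The 2 matching Aldoa windows held 76 and 0. Exon overlap was not counted for uncalled members. The Vegfa match lies before the more downstream of its 2 starts, so it may be in transcribed sequence. The core occurred in 4998 of 27025 genes with a RefSeq promoter (18.5%) and in 2327 of 9082 tested genes (25.6%). It occurred in 8 of 17 glycolysis members (47.1%), in 0 of 6 pentose phosphate members and in 12 of 13 hypoxia members (92.3%). Of the members lower in KO it occurred in 5 of 9, namely the 4 shown and Pkm. It was absent from Aldoc, Pfkl, Gapdh and Tkt, and Ndrg1 and Slc2a3 had no promoter entry. Of the members higher in KO it occurred in 0 of 2. Among uncalled glycolysis members it occurred in Ldha, Pfkm, Pgam1, Pgk1 and Slc2a1, but not in Eno1, Gpi1, Hk1 or Tpi1. All hypoxia members with an entry except Pdk1 held it in at least 1 window, although only P4ha1 and Bnip3 of these were called. The core was thus not confined to members lower in KO. A match describes the letters of the window and is not evidence of a bound site, and some of the hypoxia genes are known for such sites.

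Transcripts of glycolysis were lower in KO lenses at several steps of the pathway and higher for a pair of alternative isoenzymes. Of 18 members, 6 were lower (Hk2, Pfkl, Aldoa, Aldoc, Gapdh and Pkm), 2 were higher (Pfkp and Ldhb) and 10 did not pass the test, at an adjusted p under 0.05 by limma over all tested genes. Over all tested genes 4.39% were lower and 6.91% were higher, 11.3% in all. The median log2 difference of the 18 members was -0.56, against 0.03 over all tested genes. All 3 KO libraries lay below all 3 CON libraries for 10 of the 18 members, which held for 14.1% of tested genes, and above them for 2 of the 18, which held for 16.9%.

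**Figure D1:**
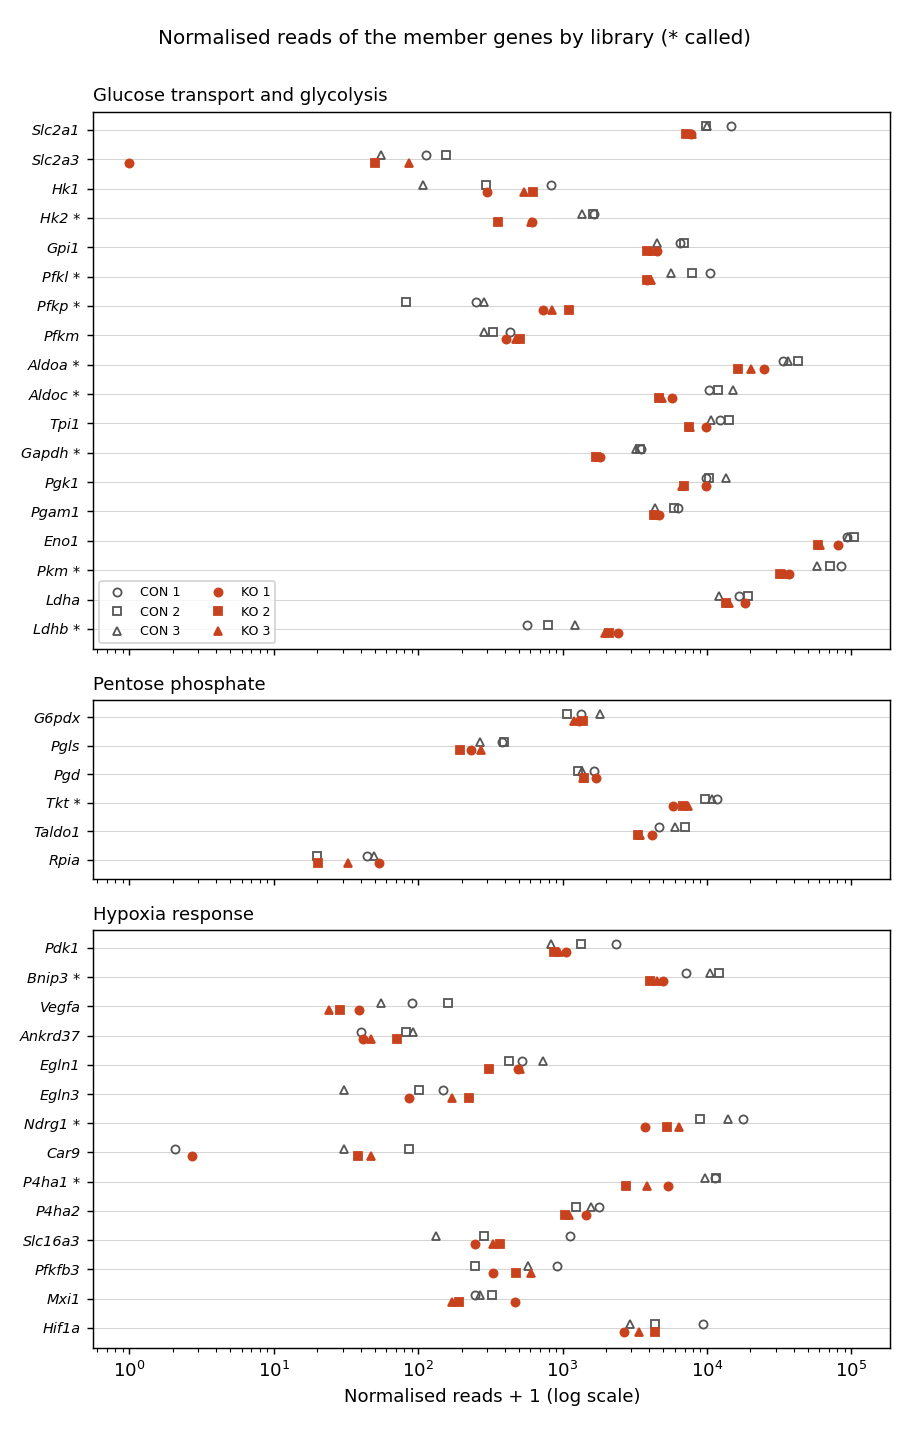
Normalised reads plus 1 on a log axis for the 38 matched members, with 1 symbol per library (open grey, CON 1 to 3; filled orange, KO 1 to 3) and an asterisk beside called members. Hk2, Pkm and P4ha1 show KO libraries below every CON library, whereas Pfkp and Ldhb show them above.

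The members span a wide range of levels. Per kilobase of merged exons, the CON lenses held most Eno1 (38332 ± 2465 normalised reads per kb, SD, n = 3), then Pkm (27616 ± 5207) and Aldoa (20595 ± 2559), and the least of the glycolysis members was Slc2a3 (27.1 ± 12.6). After Aldoa came Ldha (8486 ± 1902), Tpi1 (7010.0 ± 1016) and Pgk1 (6146 ± 1075), and neighbours among these 3 differed by less than the larger of their SDs. Gapdh stood lower, at 2271 ± 102 normalised reads per kb. Gapdh, Eno1, Pgk1 and Pkm share sequence with other genes to different extents, given below, so their reads may have been split or lost in counting. The order is that of reads as counted.

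Glucose enters lens cells through facilitative transporters. Slc2a1 (GLUT1, Entrez 20525) had 14791, 9898 and 9979.7 normalised reads in the CON libraries and 7797, 7202 and 7932 in the KO libraries. All KO values lay below all CON values, but the difference did not pass the test (log2 difference -0.56, SE 0.21, adjusted p = 0.113). Slc2a3 (GLUT3) was low, at 54.6 to 154 normalised reads in CON and 0 to 85.6 in KO, and the groups overlapped (log2 difference -0.67, adjusted p = 0.271).

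Hexokinase traps glucose in the cell by phosphorylation. Hk2 (Entrez 15277), the insulin- and hypoxia-regulated isoenzyme, had 1649.9, 1627 and 1357 normalised reads in the CON libraries and 619, 355 and 608 in the KO libraries. The groups were far apart, with means of 1545 ± 163 and 527 ± 149 (SD, n = 3 each), 2.93-fold lower in KO (log2 difference -1.33, SE 0.24, limma adjusted p = 0.00566). Hk1, the widely expressed isoenzyme, had 827, 293 and 108 in CON and 301, 625 and 538 in KO. Its CON values spread over both sides of the KO values, and the difference did not pass the test (log2 difference 0.39, adjusted p = 0.618).

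Phosphofructokinase commits the sugar to glycolysis and is built from 3 kinds of subunit. Pfkl (liver type, Entrez 18641) had 10555, 7824 and 5646 normalised reads in the CON libraries and 3825, 3839 and 4108 in the KO libraries. It was 2.04-fold lower in KO, with no overlap and a much narrower spread among the KO libraries (log2 difference -0.95, SE 0.23, limma adjusted p = 0.0235). Pfkp (platelet type, Entrez 56421) moved the other way, from 252, 81.8 and 286 in CON to 737, 1106 and 844 in KO. Every KO library was above every CON library, 4.33-fold on the means of 207 ± 109.5 and 895 ± 189.6 (SD, n = 3 each; log2 difference 1.603, SE 0.30, limma adjusted p = 0.00673). Pfkm (muscle type) had 286 to 429.6 in CON and 404 to 503 in KO, which overlapped (log2 difference 0.30, adjusted p = 0.469).

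Aldolase splits the 6-carbon sugar. Aldoa (Entrez 11674), the main form in muscle and in these lenses, had 33545, 42684 and 36467 normalised reads in the CON libraries and 24887, 16492 and 20196 in the KO libraries. It was 1.83-fold lower in KO without overlap (log2 difference -0.88, SE 0.22, limma adjusted p = 0.0237). Aldoc (Entrez 11676), the form best known from brain, had 10270.1, 11905 and 15151 in CON and 5719, 4666 and 4899.6 in KO. All KO values lay well below the lowest CON value, with means of 12442 ± 2484 and 5095 ± 553 (SD, n = 3 each; 2.44-fold lower, log2 difference -1.25, SE 0.21, limma adjusted p = 0.00358).

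Of the 5 members that carry triose phosphates to phosphoenolpyruvate, only Gapdh passed the test. Gapdh (Entrez 14433), which makes the first NADH of the pathway, had 3513, 3449 and 3223 normalised reads in the CON libraries and 1806, 1701 and 1761 in the KO libraries. It was 1.93-fold lower in KO with little spread in either group (log2 difference -0.89, SE 0.19, limma adjusted p = 0.0117). Gapdh is often used as a reference transcript, and in these libraries it was among the called genes. In Gapdh 82.5% of 50-base windows of the transcript occur in transcripts of other annotated genes, most of all in Gm7336, so its reads may have been split or lost in counting.

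Eno1 (enolase 1) had 93500.3, 104820.5 and 94460.3 normalised reads in the CON libraries and 80550.2, 58676 and 60575 in the KO libraries. Tpi1 (triose phosphate isomerase) had 12293, 14193 and 10611 in CON and 9845, 7558 and 7607 in KO. Pgk1 (phosphoglycerate kinase 1) had 9835, 10354 and 13462 in CON and 9814, 6959 and 6669.7 in KO. For all 3 genes the KO values lay below the CON values, for Pgk1 by a narrow gap between KO 1 and CON 1. None passed the test: the log2 difference was -0.56 for Eno1 (adjusted p = 0.122), -0.56 for Tpi1 (adjusted p = 0.104) and -0.52 for Pgk1 (adjusted p = 0.159). Gpi1, the phosphoglucose isomerase that precedes phosphofructokinase, and Pgam1, a phosphoglycerate mutase, overlapped between groups, with log2 differences of -0.48 (adjusted p = 0.182) and -0.28 (adjusted p = 0.416). Much of Eno1 (72.2% of windows), Pgk1 (68.0%) and Pgam1 (41.5%) is also shared with other genes or copies.

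Pyruvate kinase makes ATP in the last step of glycolysis. Pkm (Entrez 18746) had 85391, 71606 and 58328 normalised reads in the CON libraries and 36796, 31983 and 34609.9 in the KO libraries. It was 2.08-fold lower in KO, and the lowest CON library was far above the highest KO library (log2 difference -1.04, SE 0.21, limma adjusted p = 0.0100). The table counts the gene as a whole, so the M1 and M2 forms are not separated, and 34.4% of its windows are shared with other genes.

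Lactate dehydrogenase regenerates NAD+. Ldhb (Entrez 16832), the subunit that favours the conversion of lactate to pyruvate, had 570.0, 793 and 1221 normalised reads in the CON libraries and 2439.6, 2096 and 1967 in the KO libraries. Every KO library was above every CON library, with means of 861 ± 331 and 2168 ± 244 (SD, n = 3 each; 2.52-fold higher, log2 difference 1.23, SE 0.26, limma adjusted p = 0.0107). Ldha, the subunit of highly glycolytic tissue, had 16799, 19273 and 12171 in CON and 18411, 13463 and 14336 in KO, which overlapped throughout (log2 difference -0.05, adjusted p = 0.921).

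**Figure D2:**
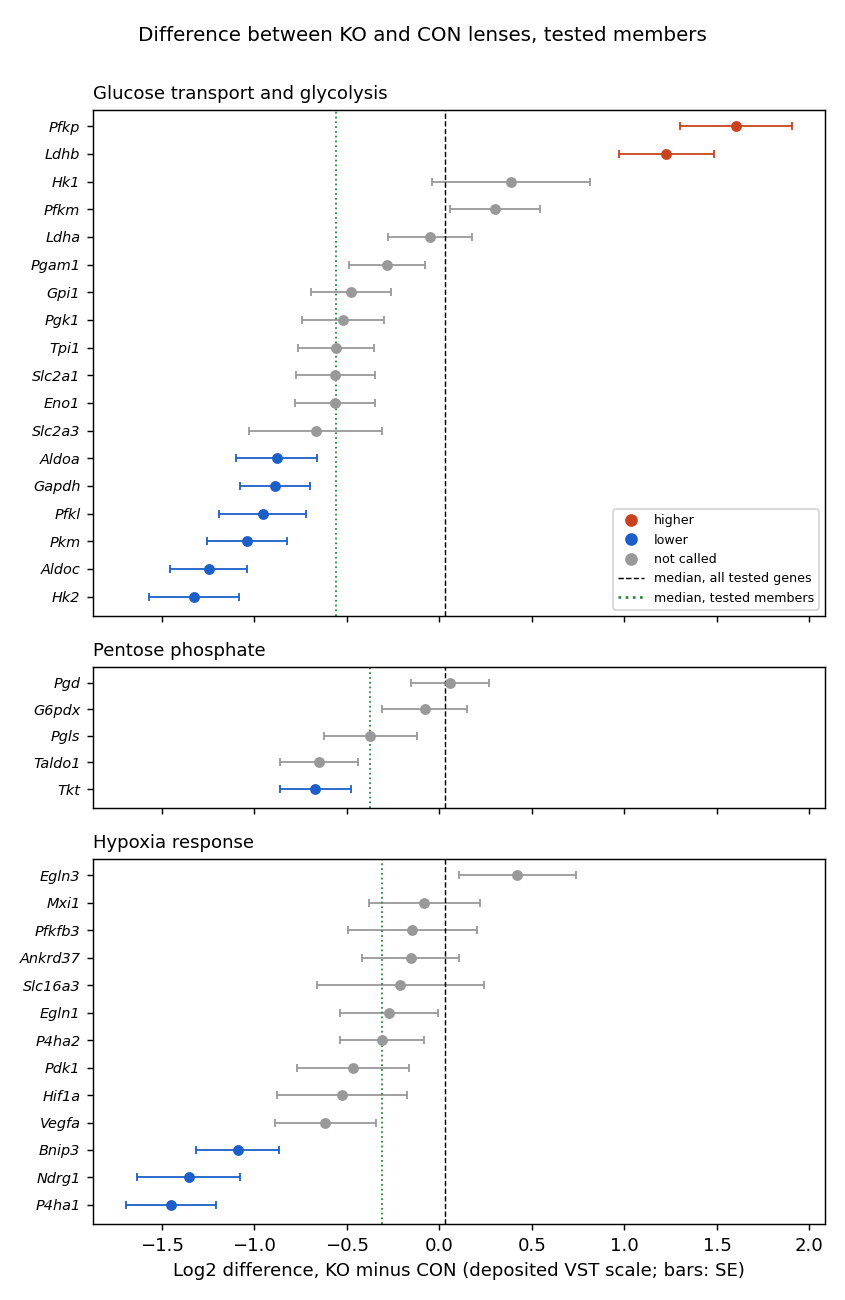
Log2 difference (KO minus CON, variance-stabilised scale) with SE for the 36 tested members, ordered within each of the 3 groups; blue marks lower, orange higher and grey not called, the dashed line the median of all tested genes (0.03) and the dotted line the median of the group. Most glycolysis members lie left of the dashed line, with Pfkp (1.603) and Ldhb (1.23) far to the right.

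Of the 12 members called over the 3 groups, 6 passed the test with each library left out in turn: Hk2, Pfkp, Aldoc, Ldhb, Ndrg1 and P4ha1. Gapdh lost the call without KO 2 or KO 3 (highest adjusted p = 0.0817), and so did Pkm (0.0568). Pfkl lost it without CON 2 or any KO library (0.0965), and Aldoa without CON 2, CON 3, KO 2 or KO 3 (0.147). KO 2 and KO 3 carry another style of library name in the labels than the other libraries. With that style as a covariate, the genotype difference rests on KO 1 against CON, and limma called 0 of 18 glycolysis members, 8 of which had an unadjusted p under 0.05, beside 2.12% of all tested genes called.

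Genes of like expression were taken as tested genes whose mean lay between the lowest and the highest mean of the group. For glycolysis these were 10867 genes with 4.44% lower, 6.94% higher and a median log2 difference of 0.02. A narrower band between the quartiles of the members' means, chosen after seeing the data, held 3111 genes with 8.07% lower, 5.53% higher and a median of -0.12. The 6 of 18 members that were lower, and their median of -0.56, stand beside these figures as a description.

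Shares of an isoenzyme within its own family do not depend on how the libraries are scaled. Reads were divided by the length of the merged exons of the gene. An exact two-sided permutation test over the 6 libraries was used for 5 families, for which the smallest possible p is 0.1. Pfkp made up 1.94%, 0.855% and 3.97% of phosphofructokinase in the CON libraries and 12.9%, 17.7% and 13.5% in the KO libraries. The shares did not overlap (exact permutation p = 0.1, adjusted over 5 families 0.25, for 2.25% ± 1.58 against 14.7% ± 2.62, SD, n = 3 each). Pfkl fell short of its CON share in every KO library, with 92.6% ± 2.05 in CON and 74.5% ± 3.27 in KO, and Pfkm made up 5.11% ± 0.516 and 10.9% ± 0.716.

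Ldhb made up 4.70%, 5.64% and 12.7% of lactate dehydrogenase in the CON libraries and 16.1%, 18.5% and 16.6% in the KO libraries. Here too the groups were separate, with CON 3 closest to KO (exact permutation p = 0.1, adjusted 0.25). Hk1 made up 36.7%, 17.2% and 8.41% of the hexokinase pair in CON and 36.0%, 67.1% and 50.6% in KO, where KO 1 fell within the CON range (exact permutation p = 0.2, adjusted 0.25). The shares of Aldoc in aldolase (16.9% ± 3.003 in CON, 13.4% ± 1.27 in KO; exact permutation p = 0.2, adjusted 0.25) and of Slc2a3 in the transporter pair (0.780% ± 0.431 and 0.480% ± 0.446; exact permutation p = 0.5) overlapped between groups. No difference in share could pass 0.05 at this number of libraries.

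**Figure D3:**
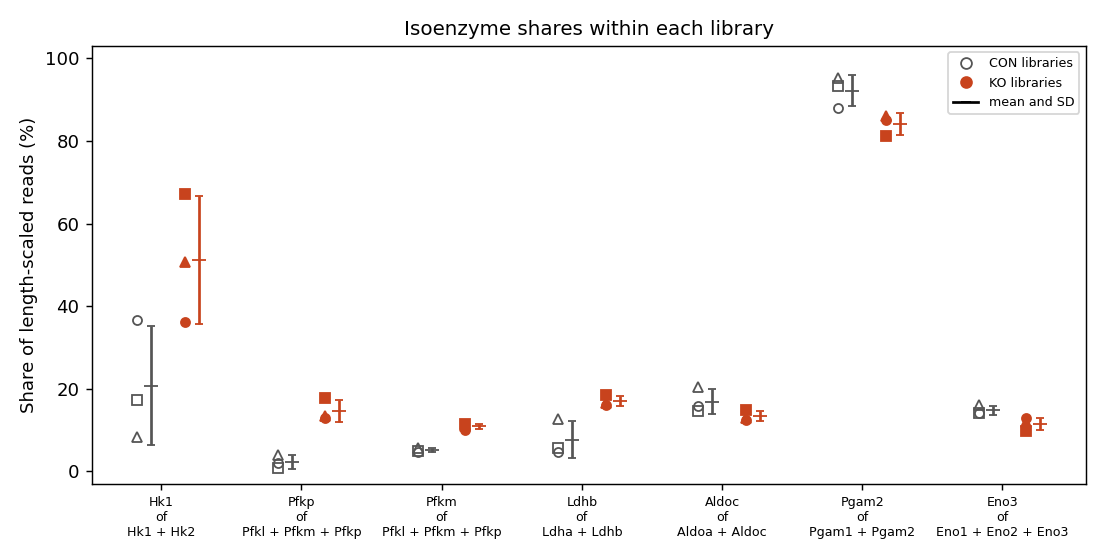
Share of length-scaled reads within the isoenzyme family (percent) for 7 genes, with 1 symbol per library (open grey, CON; filled orange, KO) and bars for mean and SD (n = 3). Pfkp, Pfkm and Ldhb are higher in each KO library than in any CON library, and the shares of Hk1 vary most between libraries.

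Other genes of glucose handling, 40 in number, gave 26 tested genes, of which 3 were higher in KO and 3 lower (6.91% and 4.39% of all tested genes), with a median log2 difference of 0.10. The lower genes included the muscle forms of 2 glycolytic enzymes. Pgam2 (muscle phosphoglycerate mutase) had 21949, 39008 and 40790.4 normalised reads in the CON libraries and 12583, 8754 and 12788 in the KO libraries, 2.98-fold lower without overlap (log2 difference -1.53, limma adjusted p = 0.00462). Eno3 (muscle enolase) had 9467, 10681 and 11133 in CON and 7283, 3943 and 5024 in KO (log2 difference -0.96, limma adjusted p = 0.0223, lost without CON 2, CON 3, KO 2 or KO 3). Pgam2 was the main mutase transcript of these lenses, at 92.2% ± 3.72 of the length-scaled sum with Pgam1 in CON and 84.1% ± 2.63 in KO, families chosen after their values were seen.

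Txnip and Arrdc4 encode related arrestin-domain proteins, both known to be induced by glucose through MondoA and to restrain glucose uptake. In KO lenses they moved in opposite directions. Txnip had 529.9, 229.7 and 277 normalised reads in the CON libraries and 1178, 1405 and 825 in the KO libraries, 3.29-fold higher (log2 difference 1.38, limma adjusted p = 0.0104). Arrdc4 had 1287, 535 and 519 in CON and 213, 88.4 and 158 in KO, 5.09-fold lower (log2 difference -1.57, limma adjusted p = 0.0114). Neither overlapped between groups, and both lost the call without KO 2 (adjusted p = 0.0626 for Txnip and 0.0560 for Arrdc4).

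The other higher genes of this list were Slc2a12 (GLUT12) and Pgm2 (of the phosphoglucomutase family). Slc2a12 had 94.0, 44.1 and 112 normalised reads in the CON libraries and 193, 457 and 431 in the KO libraries (4.32-fold, log2 difference 1.18, limma adjusted p = 0.0288, lost without CON 2, KO 2 or KO 3). Pgm2 had 396, 179 and 218 in CON and 892, 515 and 642 in KO (log2 difference 1.02, limma adjusted p = 0.0399, lost without any library but CON 1). Of 12 tested genes of pyruvate dehydrogenase and the mitochondrial pyruvate carrier, 1 was higher and none lower, beside the 6.91% and 4.39% of all tested genes: Pdha1, the E1 alpha subunit, had 1705, 1120.4 and 1944 in CON and 2589, 2889.8 and 2957 in KO (log2 difference 0.79, limma adjusted p = 0.0479, lost without CON 2 or any KO library).

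In the pentose phosphate pathway, 1 of 5 tested members was lower in KO and none higher, beside 4.39% and 6.91% of all tested genes. The median log2 difference was -0.37. The lower member belongs to the non-oxidative branch, which exchanges carbon units with glycolysis. Tkt (transketolase, Entrez 21881) had 11797, 9646 and 10772 normalised reads in the CON libraries and 5839, 6856 and 7397 in the KO libraries. It was 1.603-fold lower without overlap (log2 difference -0.67, SE 0.19, limma adjusted p = 0.0461), and the call was lost without CON 2, CON 3 or any KO library (highest adjusted p = 0.172).

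Taldo1 (transaldolase), the partner of Tkt, had 4675, 7034 and 5965 normalised reads in the CON libraries and 4174, 3344 and 3454 in the KO libraries. All KO values lay below the CON values, and the difference missed the threshold (log2 difference -0.65, SE 0.21, adjusted p = 0.0728). The NADPH-yielding enzymes of the oxidative branch overlapped between groups: G6pdx (glucose 6-phosphate dehydrogenase) had 1070.0 to 1819 in CON and 1201 to 1392 in KO (log2 difference -0.08, SE 0.23, adjusted p = 0.869). Pgd (6-phosphogluconate dehydrogenase) had 1284 to 1660.5 in CON and 1394 to 1712 in KO (log2 difference 0.06, SE 0.21, adjusted p = 0.896). Pgls (6-phosphogluconolactonase), which acts between these enzymes, also overlapped (log2 difference -0.37, adjusted p = 0.378).

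Rpia (ribose 5-phosphate isomerase) was under the filter, with 43.3, 18.9 and 48.7 normalised reads in the CON libraries and 52.98, 19.2 and 31.7 in the KO libraries. The groups overlapped at this low level. Among 6610 tested genes of like expression to the group, 5.42% were lower and 7.05% higher, with a median of -0.02. The narrower band between the quartiles of the members' means held 1934 genes with 7.39% lower, 6% higher and a median of -0.10. Of 14 other tested genes of the pentose phosphate pathway and NADPH supply, limma called 0, with 2 at an unadjusted p under 0.05, and their median log2 difference was 0.20. The voom fit on recovered reads with the size factors also called 0 of these 14.

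Among hypoxia response genes, 3 of 13 tested members were lower in KO (P4ha1, Ndrg1 and Bnip3) and none was higher, beside 4.39% and 6.91% of all tested genes. The median log2 difference was -0.31, and all KO libraries lay below all CON libraries for 4 members, beside 14.1% of all tested genes. For 10578 tested genes of like expression 3.86% were lower and 7.03% higher, with a median of 0.04. The narrower band between the quartiles of the members' means held 6235 genes with 4.59% lower, 7.41% higher and a median of 0.01.

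P4ha1 (Entrez 18451) encodes a prolyl hydroxylase subunit needed to fold collagen, a main component of the lens capsule. It had 11288, 11528 and 9654 normalised reads in the CON libraries and 5373, 2738 and 3837 in the KO libraries. The groups were widely separate, at 10823 ± 1019.8 and 3983 ± 1323 (SD, n = 3 each), 2.72-fold lower in KO (log2 difference -1.45, SE 0.24, limma adjusted p = 0.00366). Its paralogue P4ha2 overlapped between groups (log2 difference -0.31, adjusted p = 0.429).

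Ndrg1 (Entrez 17988), a stress-responsive gene of epithelial and myelinating cells, had 17670.0, 9001 and 14058 normalised reads in the CON libraries and 3697, 5253 and 6452 in the KO libraries. Every KO library was below every CON library, 2.64-fold on the means of 13576 ± 4355 and 5134 ± 1381 (SD, n = 3 each; log2 difference -1.35, SE 0.28, limma adjusted p = 0.00974). With library name style as a covariate Ndrg1 was the only member called (log2 difference -1.77, limma adjusted p = 0.040), a value that rests on KO 1, its lowest library, against CON.

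Bnip3 (Entrez 12176), a receptor for mitophagy, had 7206, 12214 and 10542 normalised reads in the CON libraries and 4938, 4054 and 4519.6 in the KO libraries. It was 2.22-fold lower in KO without overlap (log2 difference -1.09, SE 0.23, limma adjusted p = 0.0104), and the call was lost without KO 2 (adjusted p = 0.0600). In Bnip3 62.4% of windows are shared with other annotated copies.

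Vegfa, the vascular growth factor, was low and lay below CON in every KO library, with 89.7, 161 and 54.6 normalised reads in the CON libraries and 38.0, 27.7 and 23.3 in the KO libraries. The difference did not pass the test (log2 difference -0.62, SE 0.27, adjusted p = 0.178). Hif1a, the regulated subunit of HIF-1, had 9427, 4371 and 2956 in CON and 2671, 4367 and 3365 in KO. Its spread in CON came mainly from CON 1, the groups overlapped, and the difference did not pass the test (log2 difference -0.53, SE 0.35, adjusted p = 0.376).

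The other tested hypoxia members all overlapped between groups. The oxygen-sensing prolyl hydroxylases Egln1 and Egln3, themselves HIF targets, had log2 differences of -0.27 (adjusted p = 0.568) and 0.42 (adjusted p = 0.438). Pdk1, which blocks pyruvate dehydrogenase, had -0.47 (adjusted p = 0.365), and Pfkfb3, which makes the activator of phosphofructokinase, had -0.15 (adjusted p = 0.834). The lactate exporter Slc16a3 had 1135, 283 and 133 normalised reads in the CON libraries and 246, 369 and 329.8 in the KO libraries, a spread in CON that held the KO values (log2 difference -0.21, adjusted p = 0.814). Ankrd37 had -0.15 (adjusted p = 0.758) and Mxi1, a Myc antagonist, -0.08 (adjusted p = 0.902). Car9, a carbonic anhydrase of the cell surface, was under the filter, with 1.06, 85.0 and 29.5 normalised reads in the CON libraries and 1.73, 37.3 and 45.98 in the KO libraries.

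Of 32 other tested genes of the HIF pathway, 1 was higher and 2 were lower in KO, near the 6.91% and 4.39% of all tested genes, with a median log2 difference of -0.08. Bhlhe40, a transcriptional repressor of the clock that HIF is known to induce, had 207, 132 and 395 normalised reads in the CON libraries and 2131, 1763 and 1826 in the KO libraries. It was 7.79-fold higher with a wide gap between groups (log2 difference 2.42, SE 0.27, limma adjusted p = 0.000414). Mif, a cytokine and tautomerase, had 17801, 27886 and 20566 in CON and 11798, 7389.5 and 8266 in KO (2.41-fold lower, log2 difference -1.26, limma adjusted p = 0.00707). Narf had 4428, 4708 and 3751 in CON and 1894, 2236 and 2036 in KO (2.09-fold lower, log2 difference -0.9997, limma adjusted p = 0.00805). All 3 held their calls with each library left out in turn. With library name style as a covariate, Bhlhe40 kept its call (adjusted p = 0.0101), while the other genes named from the 4 lists outside the members, from Pgam2 to Narf, did not pass.

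The size of these differences depends on what the libraries are scaled to, and crystallins took fewer reads in KO. As a share of reads outside crystallins, the 18 glycolysis members took 1.66%, 1.54% and 1.28% in the CON libraries and 1.18%, 1.01% and 1.02% in the KO libraries, without overlap. As a share of all reads in genes they took 0.671%, 0.487% and 0.435% in CON and 0.617%, 0.6003% and 0.543% in KO, which overlapped. On this scale CON 1 lay above every KO library and CON 2 and CON 3 below, and the KO mean was the higher (0.587% against 0.531%). Hypoxia members took 0.285%, 0.204% and 0.196% of reads outside crystallins in CON and 0.115%, 0.122% and 0.128% in KO, without overlap, but 0.115%, 0.0646% and 0.0665% of all reads in CON and 0.0605%, 0.0727% and 0.0684% in KO, which overlapped. Pentose phosphate members took 0.0996% ± 0.00666 outside crystallins in CON and 0.0779% ± 0.00385 in KO (SD, n = 3 each). Of all reads they took 0.0434%, 0.0303% and 0.0324% in CON and 0.0386%, 0.0479% and 0.0425% in KO, where CON 1 fell within the KO range and the KO mean was the higher.

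With total reads as library size, the median of all tested genes moved from 0.03 to 0.86, and with reads outside crystallins to 0.23. With total reads the medians of the glycolysis, pentose phosphate and hypoxia members were 0.29, 0.30 and 0.43, thus above 0, and -0.57, -0.56 and -0.44 relative to all tested genes. On the deposited scale the same relative medians were -0.59, -0.40 and -0.34. With total reads, 4 glycolysis members were higher (Pfkp, Ldhb, Pfkm and Ldha) and 1 lower (Aldoc), beside 28.9% and 0.741% of all tested genes. Hk2, Pfkl, Aldoa, Gapdh, Pkm, Bnip3, Ndrg1 and P4ha1 stayed below 0 on that scale without passing the test, and Tkt turned to 0.13. In all, 19 of the 30 tested members with a negative difference on the deposited scale had a positive one with total reads, and Pgd was then called higher (log2 difference 0.87, limma adjusted p = 0.0360). The settings with which the pentose phosphate call was lost called 6.53% of all tested genes without a filter, 7.53% with voom and reads outside crystallins, 8.62% on log2 of normalised reads plus 1, 10.2% without the variance trend and 7.97% with the replicate block.

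**Figure D4:**
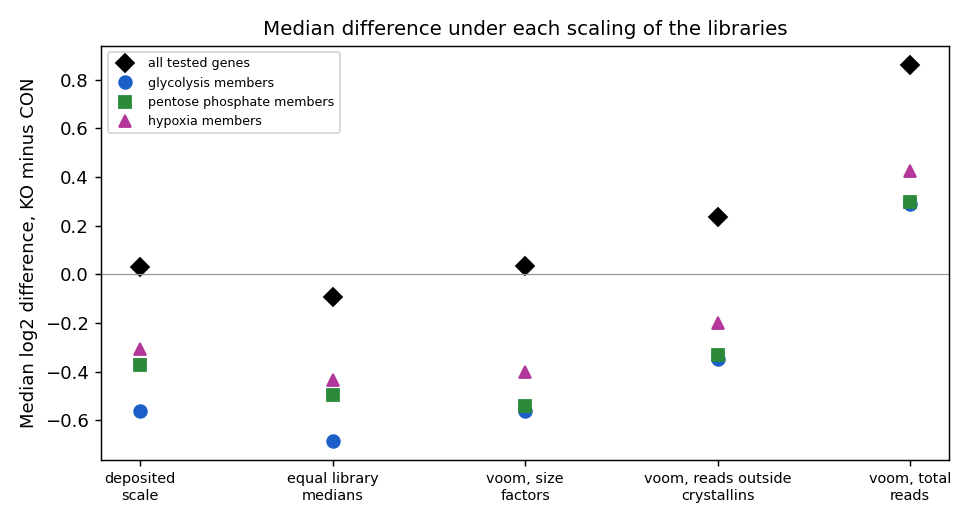
Median log2 difference (KO minus CON) of all tested genes (black) and of the tested members of the 3 groups, under 5 scalings of the libraries. Every point of the members lies below the black point of the same scaling, while the medians of the members lie above 0 only with total reads as library size.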

How the data were processed

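RNA of 6 lens libraries was sequenced from total RNA with a low-input kit, per the labels' protocols. Per the submitters' processing notes, the authors used Trimmomatic, HISAT2 2.1.0, featureCounts 1.6.4, build mm9 and DESeq2 in a version given as 2.11.0.6. The annotation and strand setting are not given in the sources used here. The deposited table holds log2 values, which the authors had variance-stabilised. That step shrinks differences of genes with few reads, so fold values in the text are ratios of mean normalised reads.

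The transformation was inverted to reads, and 100% of values lay within 0.1 of a whole number. The size factors that resulted equalled the median of ratios. Reads carry no molecular identifiers. Identifiers were matched to symbols with RefSeq names (25275 of 27179). Levels per kilobase used the merged exons, and shared windows of 50 bases the longest coding transcript, of GENCODE vM21 (GRCm38).

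KO and CON were compared with limma 3.58.1 in R 4.3.3 (lmFit, eBayes with trend) on the deposited values. The filter kept genes whose mean exceeded the lowest value by 1 unit or more, the call needed an adjusted p (Benjamini-Hochberg) under 0.05, and the fit was tested on simulated data. The alternatives were other filters, scalings and transformations, voom on recovered reads, a variance model without trend, a replicate block, a covariate for library name style and each library left out in turn. Members and lists were chosen with earlier results of these data known. The text gives every library's value for members that were called, that did not overlap between groups or that were under the filter, and names called genes of the other lists. The values in every library of Hk1, Ldha, Slc16a3 and Hif1a were added after seeing them.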

Additional observations from a re-analysis of the deposited data

How the results depend on the processing

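Of all tested genes, 793 were higher and 504 lower in KO. The share of tested genes that were higher, 6.91%, was 3.67% with voom and size factors (421 genes), 28.9% with voom and total reads (3314) and 1.78% with library name style as a covariate (204), and a filter of 3 units left 340 higher genes. The share that were lower, 4.39%, was 1.87% without a filter, 9.22% with a filter of 3 units, 2.55% with voom and reads outside crystallins (292 genes), 0.741% with total reads (85) and 0.34% with name style (39). Leaving out each library gave 3.11% to 9.46% higher and 1.53% to 7.48% lower genes. Glycolysis members called, 8 on the deposited scale, numbered 5 with total reads, 0 with name style (8 at an unadjusted p under 0.05) and 4 to 8 with a library left out. The pentose phosphate call was lost (0 called by limma or voom) without a filter, with voom and reads outside crystallins, on log2 of normalised reads plus 1 and without the trend, each with 2 members at an unadjusted p under 0.05. With total reads Tkt lost its call and Pgd was called higher. The call was also lost with name style (0 called, 1 at an unadjusted p under 0.05), and 0 to 2 members were called with a library left out. Hypoxia members called, 3 on the deposited scale, numbered 0 with voom and total reads (1 at an unadjusted p under 0.05), 1 with name style and 2 to 3 with a library left out. With total reads 19 of 30 negative member differences turned positive, among them Ldha (log2 difference 0.82, adjusted p = 0.0240) and the called Tkt (0.13, adjusted p = 0.644). These turns came with the shift of all genes given above. The cause of the other changes was not tested.

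Residuals of libraries with equal replicate numbers correlated at -0.364, -0.128 and -0.14, and those with unequal numbers at -0.228 to 0.329. So few values, from groups of 3, cannot show whether equal numbers pair the libraries. With the replicate block, 605 genes were higher and 309 (2.69%) lower, and 5 glycolysis members, 0 pentose phosphate members (2 at an unadjusted p under 0.05) and 3 hypoxia members were called. The 5 isoenzyme shares moved by less than the spread between libraries without division by length and with each library left out. CON 2 was the shallowest library, and for members near 50 normalised reads, such as Slc2a3, Vegfa, Rpia and Car9, the depth limits what can be detected.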

Other observations

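Libraries of a group were not ordered alike over the members. Among the KO libraries KO 1 was highest for 12 of 18 glycolysis members and KO 2 was lowest for 11, and among the CON libraries CON 3 was lowest for 11. KO 1 also had the highest summed normalised reads of the 12 macrophage markers, 23823 against 11143 in KO 2 and 6964 in KO 3. Among the hypoxia members CON 1 was highest of CON for 7 of 13.

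Eno1b, a copy that shares 70.5% of the windows of Eno1, had 1408, 1643 and 1207 normalised reads in the CON libraries and 1098, 857 and 883 in the KO libraries, the same order of groups as Eno1. Pfkp shares 17.1% of its windows with its neighbour Pitrm1, which had 4077, 1998 and 3835 in CON and 3196, 3258 and 3973 in KO. The groups overlapped for Pitrm1, unlike for Pfkp. Hk2, Aldoc, Tkt and P4ha1 shared 0 windows with other annotated genes.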
